A study of Arabidopsis thaliana with 59 samples.

Results

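The genes described here are 47 nuclear genes of Arabidopsis thaliana that encode the light-harvesting antenna and the photosystems, of 32420 genes in the deposited table, 32375 of which have values. They were taken by name from the gene identifiers, as the LHCA and LHCB families, the nuclear subunits of photosystems I and II, plastocyanin, the Rieske protein and ferredoxin-NADP reductase. The quantity is the level of 22-nucleotide small RNA reads that map to each gene, not its mRNA level. The series compared aerial parts of plants of 15 genotypes, all 20 days old, grown for 6 days on MS medium and for 14 days on soil. The libraries number 59, with 4 for each genotype and 3 for ski2-2 dcl4-2 ago1-27.

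The groups were wild-type Col-0, the single mutants dcl2-1, dcl4-2, ein5-1 and ski2-2, and 4 double mutants, in which ein5-1 or ski2-2 was combined with dcl2-1 or with dcl4-2. The 6 triple mutants carry ein5-1 dcl4-2 or ski2-2 dcl4-2 together with a further mutation, which is dcl2-1, ago1-45 or ago1-27. Each gene was mutated by 1 allele, except AGO1 with 2 alleles, and complemented lines were not analysed here. Every triple mutant carries dcl4-2, and dcl4-2 was not combined with an ago1 allele alone.

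The light-harvesting proteins bind chlorophyll in the thylakoid membrane and pass excitation energy to the reaction centres of the photosystems. Photosystem II takes electrons from water, and the cytochrome b6f complex and plastocyanin carry them to photosystem I, which passes them through ferredoxin to the reductase that makes NADPH. The antenna proteins and many smaller photosystem subunits are encoded in the nucleus, and their mRNAs are among the most abundant of green leaves. EIN5 is the cytoplasmic exonuclease, also named XRN4, that degrades decapped mRNA from its 5′ end, and SKI2 is a helicase that assists the exosome at the 3′ end. DCL2 is the Dicer-like enzyme that makes 22-nucleotide small RNAs, DCL4 makes shorter ones from similar double-stranded RNA, and AGO1 is the Argonaute that binds most microRNAs and many siRNAs.

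Short reads can be assigned to a gene only as far as its sequence is its own, so stretches of 2 families are shown first. For each gene, 90 coding bases from 1 exon are given 5′ to 3′ on the gene's strand, from the RefSeq annotation of TAIR10.1, and capitals mark bases that differ from the first sequence of the set. The first set is the LHCB1 family, the major antenna of photosystem II, which held the most reads in Col-0. LHCB1.3 lies at chr1:10478545-10478634 (+), LHCB1.1 at chr1:10475329-10475418 (−), LHCB1.2 at chr1:10472683-10472772 (−), LHCB1.4 at chr2:14525289-14525378 (+) and LHCB1.5 at chr2:14522956-14523045 (−).
LHCB1.3: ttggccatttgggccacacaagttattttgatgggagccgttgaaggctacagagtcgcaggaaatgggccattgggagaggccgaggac
LHCB1.1: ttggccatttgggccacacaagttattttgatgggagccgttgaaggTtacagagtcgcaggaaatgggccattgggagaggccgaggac
LHCB1.2: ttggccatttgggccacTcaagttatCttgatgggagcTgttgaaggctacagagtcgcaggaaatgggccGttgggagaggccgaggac
LHCB1.4: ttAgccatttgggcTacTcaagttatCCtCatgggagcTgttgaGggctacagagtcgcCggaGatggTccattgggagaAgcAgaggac
LHCB1.5: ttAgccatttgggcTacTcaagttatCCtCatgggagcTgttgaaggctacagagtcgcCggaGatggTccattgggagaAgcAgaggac
LHCB1.1 differed from LHCB1.3 at 1 of the 90 bases, and 47 of its 69 22-base windows were identical. LHCB1.2 differed at 4 bases and kept 11 identical windows. LHCB1.4 and LHCB1.5, at 13 and 12 differences, kept 0. Over 660 aligned coding bases, identity to LHCB1.3 was 96.5% for LHCB1.1, 96.7% for LHCB1.2, 88.6% for LHCB1.4 and 90.3% for LHCB1.5. How the authors counted a read that matches several of these genes is not given in the sources used here, so levels of single LHCB1 genes are uncertain.

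The second set is plastocyanin, the copper protein that carries electrons to photosystem I, and is shown because its 2 genes behaved differently. PETE2 lies at chr1:7042860-7042949 (−) and PETE1 at chr1:28554307-28554396 (−).
PETE2: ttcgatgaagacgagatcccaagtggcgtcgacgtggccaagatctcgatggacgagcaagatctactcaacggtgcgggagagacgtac
PETE1: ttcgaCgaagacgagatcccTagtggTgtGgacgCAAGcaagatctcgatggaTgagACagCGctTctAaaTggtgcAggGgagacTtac
PETE1 differed from PETE2 at 19 of the 90 bases and kept 0 identical 22-base windows, and identity over the aligned coding bases was 77.8%. Across the whole genome, 18 of the 47 genes had no 22-base window of their transcript elsewhere, 21 had up to 10% and 8 had more. The 8 were LHCA2, the 5 LHCB1 genes, LHCB2.1 and LHCB2.2, from 26.2% for LHCA2 to 46.2% for LHCB2.2. PETE1, PETE2, LHCB4.3 and LFNR2 had 0.

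Each deposited value is the mean of a genotype's libraries and carries the name TPM in the file headers. Over all genes the means summed to 1.90626e+06 in ein5-1 dcl4-2, 967422 in ski2-2 dcl4-2, and 13 other genotypes lay between 142140 and 289411, so the denominator is not known and values are called units here. They scale with reads per gene and carry no correction for gene length, so an order of genes by level is one of reads and not of expression. Values of single libraries were recovered from the means, since each mean is a sum of whole reads times a step particular to the library. Libraries are called A to D by the size of that step, which was 0.330 to 4.74 units per read. Recovered reads numbered 22454 to 407551 per library, and 223 to 13241 of them fell on the 47 genes, fewest in ein5-1 dcl4-2 library D. The lowest median coefficient of variation between libraries over the recovered genes was 9.20%, in ein5-1 dcl4-2 ago1-45, and the highest was 35.0%, in ein5-1 dcl4-2.

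Recovery failed for abundant genes, at a limit that differed between genotypes. It left 27 of the 47 genes with library values in Col-0, up to 90.9 units, and 37 in ein5-1, where a gene at 45.4 units was not recovered. All 47 were recovered in the 4 genotypes with an ago1 allele. A gene could be tested by limma only where both groups were recovered, so the 20 most abundant genes in Col-0 are described by their means and by the authors' own test where there is one. Because the denominator is unknown, levels were also set against those of microRNA loci, called the microRNA scale below. For median ratios to Col-0, this meant dividing by the median ratio to Col-0 of 94 microRNA loci. For limma folds and counts, each library was instead divided by its summed units on the recovered microRNA loci. These forms need not give the same shift. The median ratio of the 94 loci lay between 0.659 in ein5-1 dcl4-2 ago1-45 and 2.13 in ski2-2 dcl4-2 dcl2-1. In whole aerial parts, fewer cells of a type and less RNA per cell cannot be told apart.

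In Col-0 the 47 genes summed to 5917 units, which is 3.25% of the sum over all genes, and the 8 LHCB1 and LHCB2 genes made up 2840 units of it. LHCB1.3 (AT1G29930) had the highest mean, 680.2 units, and LHCA5, a minor antenna protein of photosystem I, had the lowest, 3.88 units. Within each role, the gene with the most reads was LHCA4 of the photosystem I antenna at 202.7 units, LHCB5 of the minor photosystem II antenna at 205.1 units and PSAL of the photosystem I core at 113.8 units. The others were PSBO1, the manganese-stabilising protein of the oxygen-evolving complex, at 191.7 units, PSBR among the other photosystem II subunits at 103.2 units, and PETE2 among the electron carriers at 124 units. These differences follow reads and are not corrected for length.

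**Figure D1:**
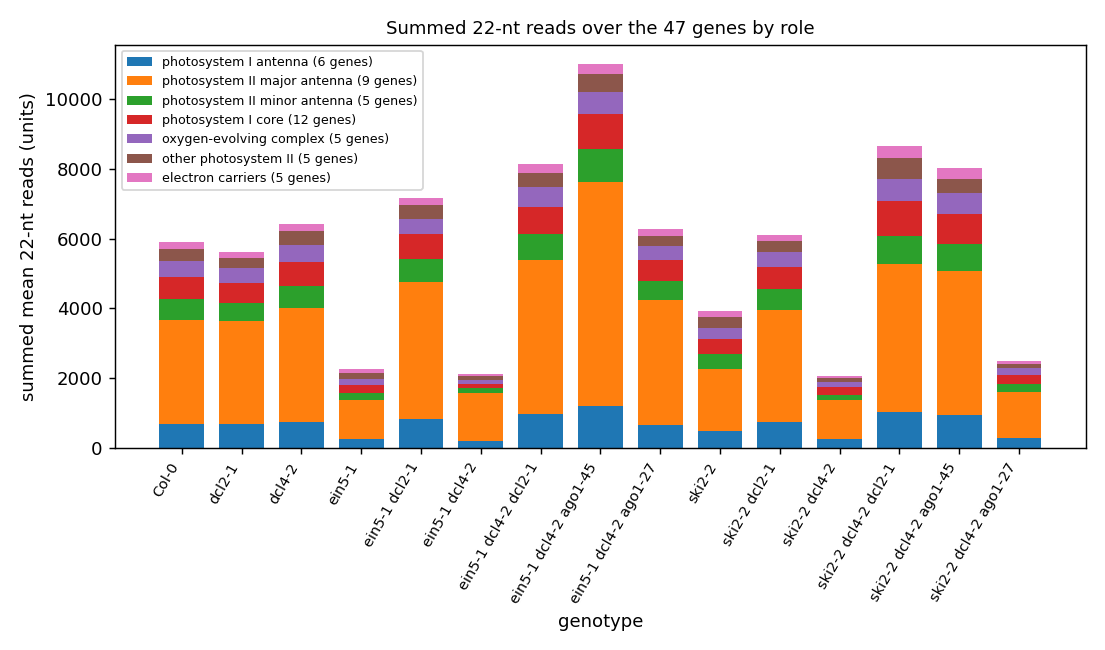
Summed mean level of 22-nucleotide reads (units, vertical axis) on the 47 genes in each of the 15 genotypes (horizontal axis). Each bar is stacked by the 7 roles, and bars show deposited means with no error. The lowest bars are those of ski2-2 dcl4-2, ein5-1 dcl4-2 and ein5-1, and the highest is that of ein5-1 dcl4-2 ago1-45.

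The summed level separated the genotypes into high and low ones. Against Col-0 it was 0.380 in ein5-1, 0.665 in ski2-2, 0.357 in ein5-1 dcl4-2, 0.350 in ski2-2 dcl4-2 and 0.422 in ski2-2 dcl4-2 ago1-27. It was 0.950 in dcl2-1, 1.03 in ski2-2 dcl2-1, 1.06 in ein5-1 dcl4-2 ago1-27, 1.09 in dcl4-2, 1.21 in ein5-1 dcl2-1, 1.36 in ski2-2 dcl4-2 ago1-45, 1.38 in ein5-1 dcl4-2 dcl2-1, 1.46 in ski2-2 dcl4-2 dcl2-1 and 1.86 in ein5-1 dcl4-2 ago1-45. The order partly depends on the scale. On the microRNA scale the median ratio of the 47 genes was 0.469 in ein5-1, 0.690 in ski2-2, 0.260 in ein5-1 dcl4-2, 0.275 in ski2-2 dcl4-2 and 0.264 in ski2-2 dcl4-2 ago1-27, against 0.398, 0.720, 0.283, 0.337 and 0.413 as deposited, so these 5 stayed below Col-0. As deposited, the median over all genes in these 5 was 0.868, 0.936, 1.35, 0.920 and 0.643. The ago1-45 triple mutants stayed above Col-0 on the microRNA scale, at 2.58 with ein5-1 and 2.04 with ski2-2, against 1.70 and 1.35 as deposited. The ratio of the microRNA loci was itself 0.659 and 0.664 there, so this scale could only raise them. All 5 genotypes with dcl2-1 lay below Col-0 on that scale. The median moved from 0.935 to 0.607 in dcl2-1 and from 0.991 to 0.638 in ski2-2 dcl2-1, both lower than ski2-2 on that scale. It moved from 1.12 to 0.885 in ein5-1 dcl2-1, from 1.29 to 0.723 in ein5-1 dcl4-2 dcl2-1 and from 1.54 to 0.722 in ski2-2 dcl4-2 dcl2-1, and in dcl4-2 the median moved from 1.11 to 0.878.

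**Figure D2:**
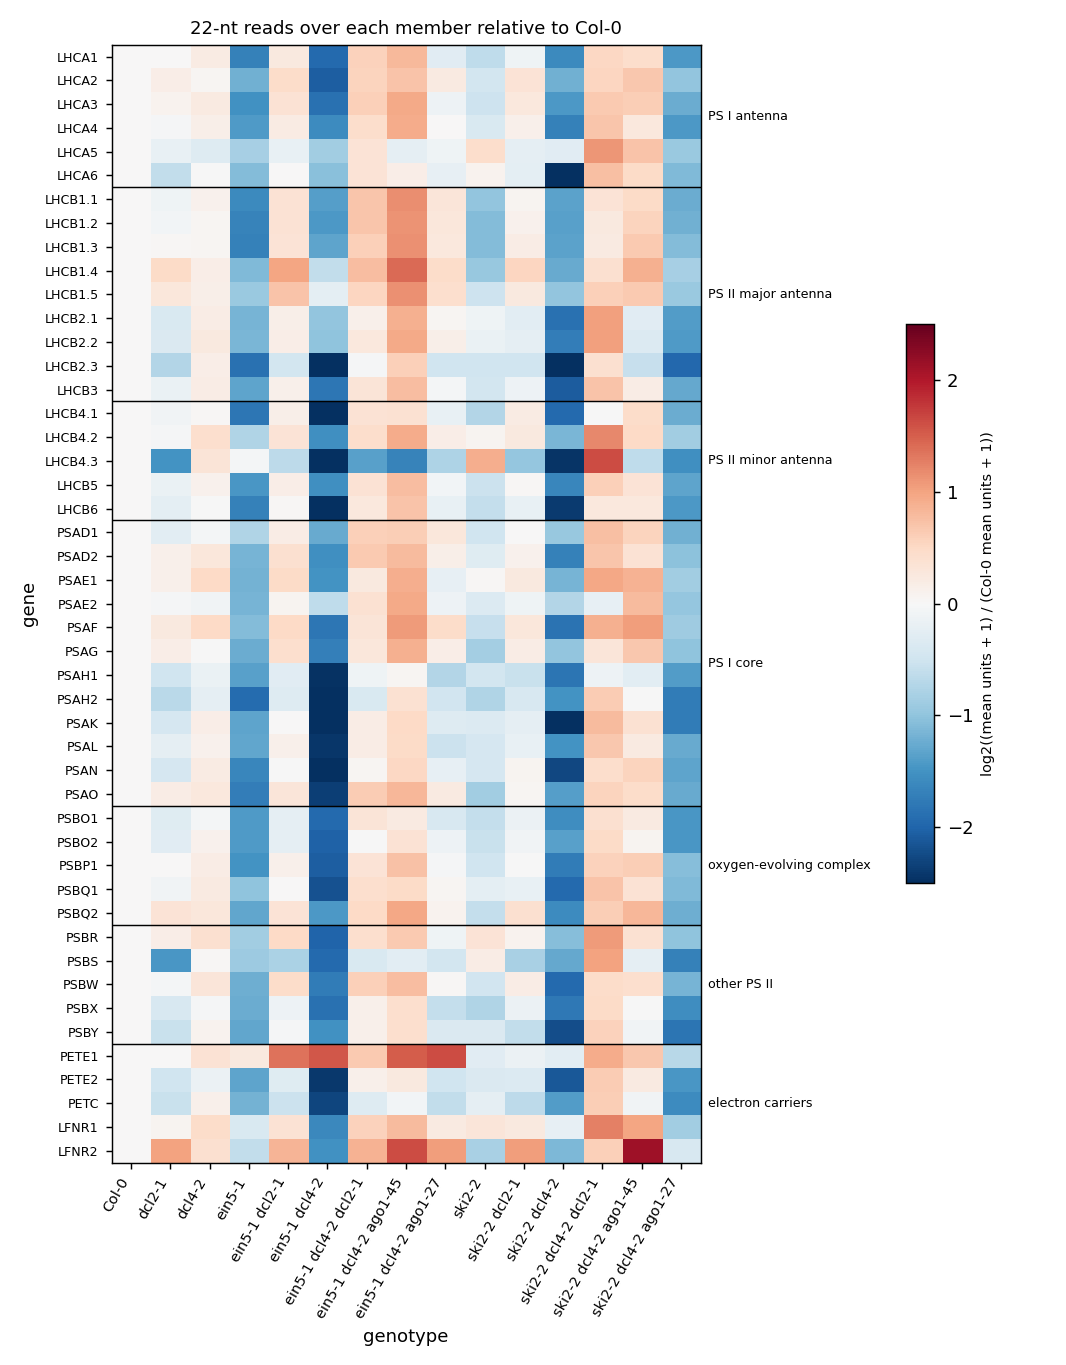
Level of each of the 47 genes (rows, grouped by role) in each of the 15 genotypes (columns), coloured by log2((mean + 1)/(Col-0 mean + 1)) of the deposited means and limited at 2.5 in either direction. Nearly every row is low in the ein5-1, ein5-1 dcl4-2, ski2-2 dcl4-2 and ski2-2 dcl4-2 ago1-27 columns. The rows of PETE1 and LHCB4.3 differ from the rest.

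Most genes followed one profile across genotypes. Pearson's r of each gene with the median of the other 46, over the 15 genotype means, was above 0.9 for 38 of the 47 genes, with a median of 0.963. It was highest for LHCB5 (r = 0.991), the CP26 antenna protein, followed by PSBO2 (r = 0.990) and LHCA4 (r = 0.989). The lowest were PETE1 (r = 0.293), LHCB4.3 (AT2G40100, r = 0.511), a stress-responsive form of the CP29 antenna, LHCA5 (r = 0.717) and PSBS (AT1G44575, r = 0.756), the protein of photosystem II that turns excess light energy into heat. These values describe means that share libraries, and no test was made of them.

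Loss of EIN5 alone came with a lower level of nearly all the genes. The mean of 46 of the 47 was below Col-0, with a median ratio of 0.398 against 0.868 over all genes. PSAH2 (AT1G52230), a photosystem I subunit that docks the mobile antenna, was lowest at 0.251. PETE1 (AT1G76100) was the only one above 1, at 1.22. Role medians were close together, at 0.381 for the photosystem I antenna, 0.398 for the major and 0.361 for the minor photosystem II antenna, 0.395 for the photosystem I core, 0.369 for the oxygen-evolving complex and 0.423 for other photosystem II subunits. The electron carriers had 0.632.

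In library values the groups were apart. PSBO2 (AT3G50820), the second manganese-stabilising protein, had 46.4, 53.7, 50.2 and 52.0 units in the 4 Col-0 libraries and 13.8, 13.3, 22.6 and 24.0 units in ein5-1. PSAH2 had 42.3, 67.9, 47.1 and 58.2 units in Col-0 and 17.3, 12.8, 9.69 and 14.3 in ein5-1. Every ein5-1 library lay below every Col-0 library for both genes. Of 27 genes tested in ein5-1 against Col-0, 21 were lower and 0 higher (limma, Benjamini-Hochberg adjusted p below 0.05, the rule for every call here), against 4.8% lower and 8.8% higher of all genes tested. The median log2 fold was -1.20 for the 27 and 0.05 for all genes. The largest falls were in PSAH2 (log2 fold -1.92, SE 0.20, adjusted p = 2.57e-15, limma) and LHCB2.3 of the major antenna (log2 fold -1.88, SE 0.16, adjusted p = 9.94e-20, limma). Called lower were 11 of 11 photosystem I core genes tested, 3 of 3 of the oxygen-evolving complex, 4 of 4 other photosystem II subunits and 1 of 4 electron carriers. LHCA5 and LHCA6, the only photosystem I antenna genes with library values, passed in neither direction.

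**Figure D3:**
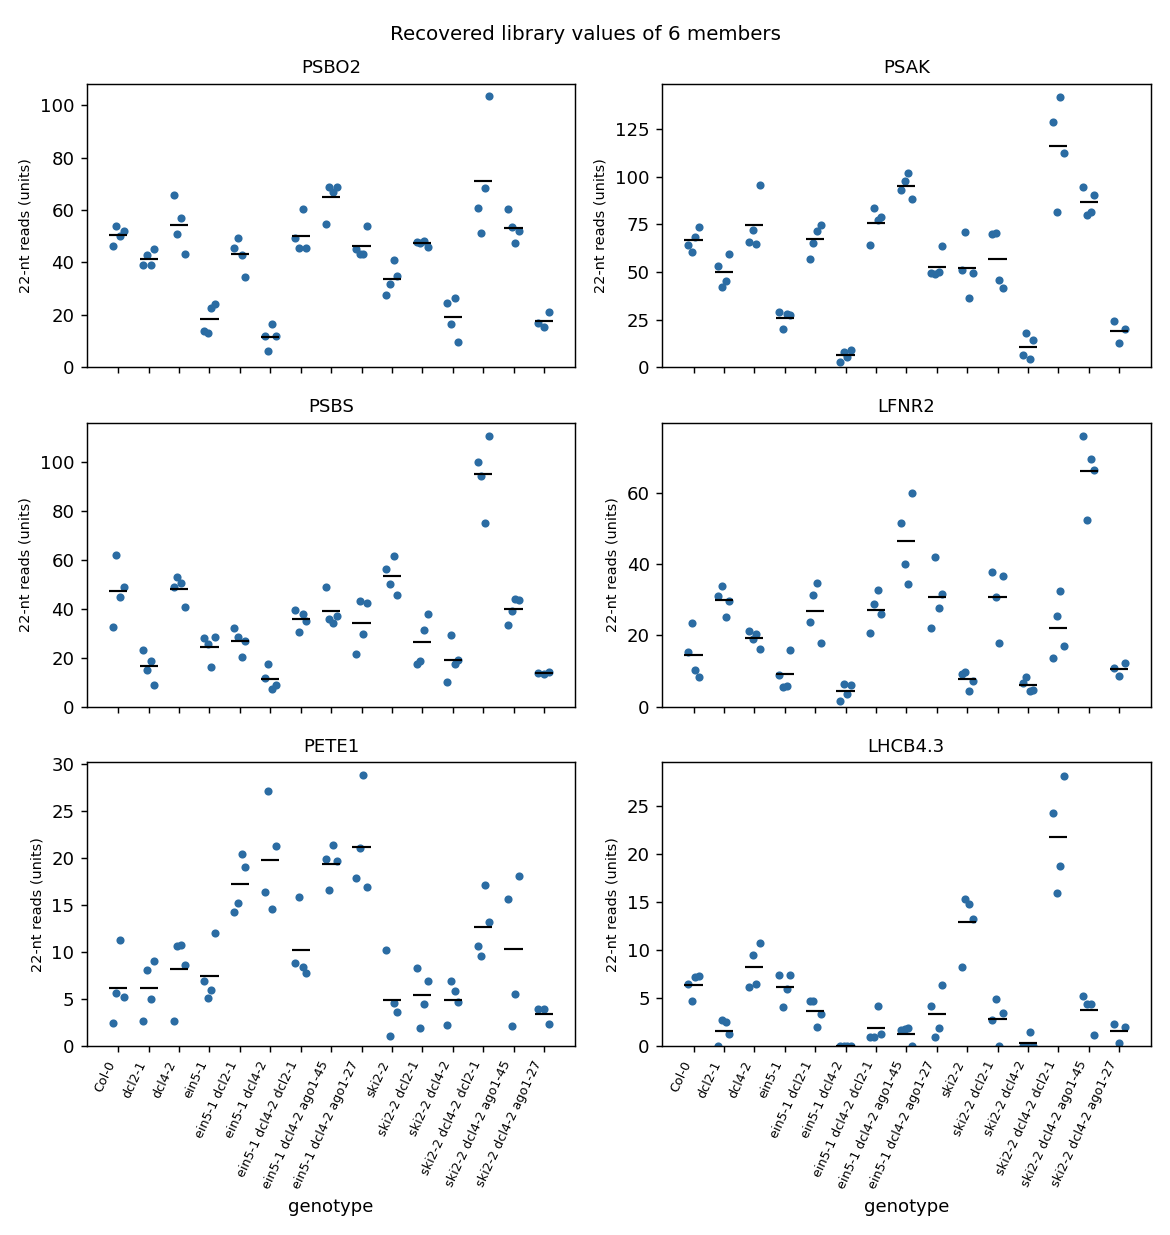
Level (units, vertical axis) of PSBO2, PSAK, PSBS, LFNR2, PETE1 and LHCB4.3 in each of the 15 genotypes (horizontal axis). Points are recovered libraries and bars are their means. PSBO2 and PSAK are low in ein5-1, in both dcl4-2 double mutants and in ski2-2 dcl4-2 ago1-27. PETE1 is at 14.5 to 27.1 units in ein5-1 dcl4-2, and LHCB4.3 is at 0 in every ein5-1 dcl4-2 library.

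Loss of SKI2 alone gave a smaller difference. Means were below Col-0 for 39 of the 47 genes, with a median ratio of 0.720 against 0.936 over all genes, from 0.469 for LHCB1.3 to 2.01 for LHCB4.3. PSBO2 had 27.7, 31.7, 41.0 and 35.0 units in ski2-2, all below the Col-0 libraries, with a log2 fold of -0.58 that was not called (adjusted p = 0.121, limma). Of 27 genes tested, 5 were lower and 0 higher, against 0.776% lower and 0.893% higher of all genes, and the median log2 fold was -0.39 against 0.02. The named falls were in PSAO, a photosystem I subunit near the docking site of the antenna (log2 fold -0.88, SE 0.15, adjusted p = 7.99e-06, limma), PSAG, which stabilises photosystem I (-0.85), PSBX, a small photosystem II subunit (-0.76), and PSAH2 (-0.75). The count of 5 became 3 without Col-0 library B or D or without ski2-2 library C, and PSAH2 was not called without any of these or without ski2-2 library A.

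Tested directly, ein5-1 was lower than ski2-2 for 20 of 31 genes and higher for 0, against 2.72% lower and 5.75% higher of all genes. The median log2 fold was -0.89, against 0.03 over all genes, and LHCB2.3 had the largest fall at -1.35. Genes outside the set were lower too. These were 8 of 16 plastid-encoded photosystem and cytochrome b6f genes (median -0.81) and 4 of 17 other nuclear thylakoid genes (median -0.57), with 0 higher in either list. Of 13 abundant nuclear genes outside photosynthesis, 6 were lower and 1 higher (median -0.61).

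Neither DCL2 nor DCL4 loss alone moved the whole set as deposited. In dcl4-2, 0 of 23 genes were called in either direction by limma, with 4 at an unadjusted p below 0.05, where 1.35% of all genes were lower and 1.38% higher. Without Col-0 library A, or on the microRNA scale, the count was 1. The median log2 fold was 0.22, against -0.00 over all genes, and it was -0.12 on the microRNA scale. In dcl2-1, 5 of 26 genes were lower and 1 higher, against 3.51% and 3.64% of all genes, with a median of -0.28 against -0.04. On the microRNA scale 22 were lower and 0 higher. Without Col-0 library B or D, 3 were lower.

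The 6 genes called in dcl2-1 were PSBS, LHCB4.3 and LFNR2, which had r below 0.9 with the common profile, and LHCB2.3, PSAH2 and PSBY, which had r of 0.947, 0.967 and 0.938. LHCB2.3 (-0.76, adjusted p = 0.000101), PSAH2 (-0.67, adjusted p = 0.00759) and PSBY (-0.58, adjusted p = 0.0296) fell by limma. PSBS had 32.5, 62.2, 45.1 and 48.8 units in Col-0 and 23.1, 15.2, 18.8 and 9.03 in dcl2-1, with no overlap (log2 fold -1.49, SE 0.23, adjusted p = 9.16e-09, limma). LFNR2 (AT1G20020), 1 of the 2 leaf ferredoxin-NADP reductases, had 15.5, 23.6, 10.2 and 8.31 units in Col-0 and 31.1, 34.0, 25.1 and 29.7 in dcl2-1, with every dcl2-1 library above every Col-0 library. Its log2 fold was 1.1 (SE 0.26, adjusted p = 0.00107, limma), and 0.21 with no call on the microRNA scale. LHCB4.3 had 6.51, 4.71, 7.17 and 7.27 units in Col-0 and 0, 2.68, 2.51 and 1.29 in dcl2-1 (log2 fold -1.65, SE 0.54, adjusted p = 0.0339, limma). That call was lost without any one of the 4 Col-0 libraries or without dcl2-1 library A.

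In plants that also lacked DCL2, the levels with ein5-1 were close to or above those without it. PSBO2 had 45.5, 49.3, 42.9 and 34.6 units in ein5-1 dcl2-1, and PSAH2 had 45.5, 40.8, 41.9 and 42.4, each above every ein5-1 library. Against dcl2-1, 45 of 47 means were higher, with a median ratio of 1.23, against 1.03 over all genes. Against ein5-1, 46 of 47 were higher, with a median ratio of 2.74 against 1.096 over all genes, and the exception was LHCB4.3 at 0.599. Of 26 genes tested in ein5-1 dcl2-1 against ein5-1, 22 were higher and 0 lower, against 7.04% and 3.8% of all genes. The median log2 fold was 1.18, against 0.20 over all genes, and on the microRNA scale 14 were higher and 1 lower. The largest rises were in PSAE1, a stromal subunit of photosystem I (log2 fold 1.69, SE 0.23, adjusted p = 1.80e-10, limma), and PSBW, a small photosystem II subunit (1.68, SE 0.15, adjusted p = 2.02e-25, limma).

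Against Col-0, ein5-1 dcl2-1 had 4 genes higher and 2 lower of 26, beside 7.93% and 2.16% of all genes, and on the microRNA scale 0 higher and 12 lower. PETE1 (1.48, SE 0.35, adjusted p = 0.000668, limma), LFNR2 (0.92) and PSAF (0.50), the subunit that receives plastocyanin, were among the higher and PSBS (-0.77) among the lower. On the microRNA scale PSAF was at -0.12, and PETE1 (0.92) and LFNR2 (0.31) were not called. The count of 4 higher genes was 2 without ein5-1 dcl2-1 library B, which ended the calls of PSAF and LFNR2. The call of LFNR2 was also lost without Col-0 library D or ein5-1 dcl2-1 library C, and that of PSBS without Col-0 library B.

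The difference between the ein5-1 effect in plants without DCL2 and in plants with it was tested as an interaction, which is positive where ein5-1 lowers a gene less when DCL2 is absent. It was positive for 19 of 26 genes and negative for 0, against 3.46% and 0.84% of all genes, and it was 19 on the microRNA scale too. The median was 1.43, against 0.21 over all genes. Genes outside the set had it too, as 9 of 13 abundant nuclear genes outside photosynthesis were called positive, with a median of 1.14, and 6 of 16 other nuclear thylakoid genes. PSAH2 had an interaction of 2.28 on the log2 scale (SE 0.28, adjusted p = 8.35e-11, limma), LHCB2.3 had 2.17, PSAN, which faces the plastocyanin side of photosystem I, had 2.05, and PSBY had 1.87. By role it was called for 9 of 10 photosystem I core genes, 3 of 3 of the oxygen-evolving complex, 4 of 4 other photosystem II subunits and 1 of 4 electron carriers.

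For ski2-2 the same interaction was positive for 3 of 26 genes and negative for 0, against 0.487% and 0.214% of all genes. The 3 were PSAH2 (1.01, adjusted p = 0.0476), PSBX (1.00, adjusted p = 0.00167) and PSAN (0.91, adjusted p = 0.0318) by limma. The count was 1 without Col-0 library C or D, dcl2-1 library B, ski2-2 library C or ski2-2 dcl2-1 library A. Means of ski2-2 dcl2-1 were above dcl2-1 for 34 of 47 genes, with a median ratio of 1.1 against 0.947 over all genes. Whether the ein5-1 and ski2-2 interactions differ was not tested.

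**Figure D4:**
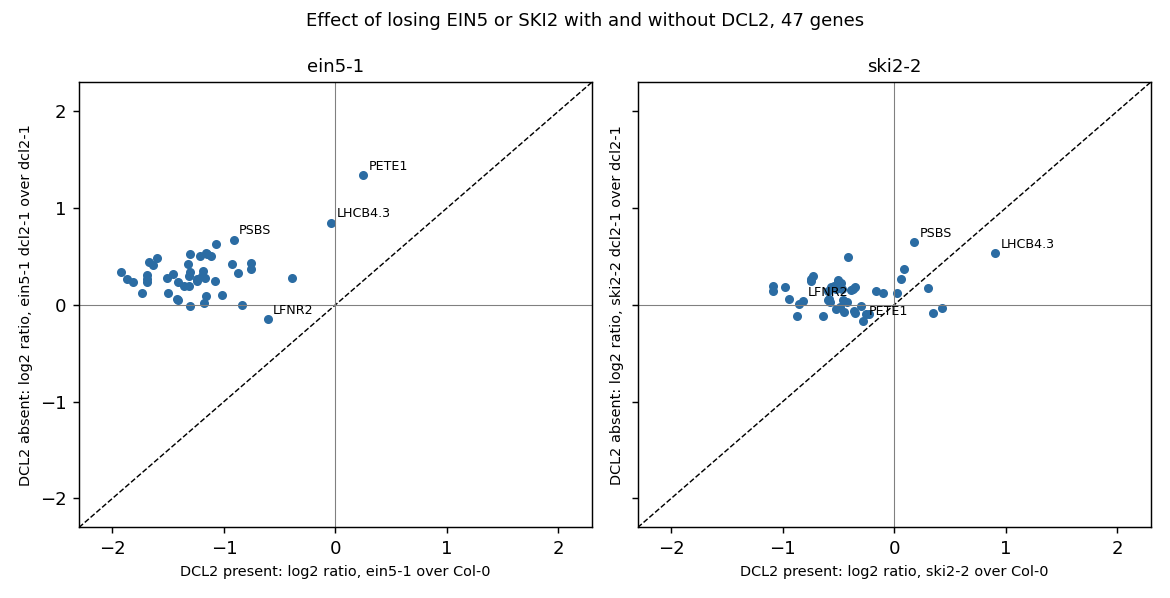
Log2((mean + 1)/(mean + 1)) of deposited means for the 47 genes, for ein5-1 (left) and ski2-2 (right). The horizontal axis is the single mutant over Col-0. The vertical axis is the same mutation in plants without DCL2, as double mutant over dcl2-1. Points are genes, and the dashed line marks equal ratios. In the left panel 46 points lie left of 0 and 45 lie above 0, and PETE1, LHCB4.3, PSBS and LFNR2 are labelled.

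Against ski2-2, ski2-2 dcl2-1 had 7 of 28 genes higher and 2 lower, beside 3.16% and 3.68% of all genes, and on the microRNA scale 1 higher and 10 lower. LFNR2 had 9.24, 9.84, 4.56 and 7.24 units in ski2-2 and 37.8, 30.7, 18 and 36.8 in ski2-2 dcl2-1, with no overlap (log2 fold 1.86, SE 0.32, adjusted p = 5.74e-07, limma). PSAG rose by 1.02 (0.25 and not called on the microRNA scale), PSBS fell by 1.06 and LHCB4.3 fell by 2.1 on the log2 scale. Against Col-0, ski2-2 dcl2-1 had 4 of 27 genes lower and 1 higher, beside 2.71% and 2.69% of all genes, and 23 lower and 0 higher on the microRNA scale. PSBS (-0.85), the Rieske protein gene PETC (-0.65) and PSBY (-0.62) were among the lower and LFNR2 (1.1) was the higher, at 0.19 with no call on the microRNA scale. Without Col-0 library B, 0 were lower and 1 higher, and without Col-0 library C or D or ski2-2 dcl2-1 library B or D, 1 was lower.

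The 2 double mutants with dcl4-2 had low levels of nearly the whole set. In the authors' deposited table, ein5-1 dcl4-2 against Col-0 was lower for 43 of the 47 genes and higher for 1, where 4.44% of all genes were lower and 21.1% higher. The median log2 fold in that table was -2.07 for the 47 genes and 0.93 for all genes. In the same table ski2-2 dcl4-2 against Col-0 was lower for 43 and higher for 0, where 7.74% of all genes were lower and 8.13% higher, with a median of -1.72 against 0. Both comparisons share the Col-0 libraries. The limma tests on recovered libraries gave 23 of 27 lower and 1 higher for ein5-1 dcl4-2, beside 4% and 30.1% of all genes, and 22 of 27 lower and 0 higher for ski2-2 dcl4-2, beside 6.28% and 6.83%.

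PSAK (AT1G30380), a photosystem I core subunit next to the antenna, shows the libraries. It had 64.2, 60.3, 68.6 and 73.8 units in Col-0, 2.97, 7.97, 5.45 and 9.10 in ein5-1 dcl4-2, and 6.66, 18.1, 4.38 and 14.2 in ski2-2 dcl4-2. No library of either double mutant reached the lowest Col-0 library. Depth was low here, as 1 read added 1.49 to 3.03 units in ein5-1 dcl4-2 and 1.11 to 4.74 in ski2-2 dcl4-2. The size of a fall to a few reads depends partly on the 1 unit added before the logarithm. The log2 fold of PSAK was -3.28 in ein5-1 dcl4-2 (SE 0.30, adjusted p = 9.49e-09, limma) and -2.69 in ski2-2 dcl4-2 (SE 0.29, adjusted p = 4.14e-11, limma). The largest falls in ein5-1 dcl4-2 were in PSAH2 (-3.52), PSAK, PSAH1 (-3.26) and LHCB2.3 (-3.22), and in ski2-2 dcl4-2 they were in LHCB2.3 (-3.29), PSBW (-2.70), PSAK and LHCA6 (-2.58), which links photosystem I to the NDH complex. LHCA6 was not called in ski2-2 dcl4-2 without Col-0 library C. It averaged 6.16 units in Col-0 and 0 in ski2-2 dcl4-2, so the size of its fall depends on the 1 unit added before the logarithm.

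By role, the authors' deposited table called lower in ein5-1 dcl4-2 against Col-0 4 of 6 photosystem I antenna genes, 9 of 9 major and 5 of 5 minor photosystem II antenna genes, 11 of 12 photosystem I core genes, 5 of 5 of the oxygen-evolving complex, 5 of 5 other photosystem II subunits and 4 of 5 electron carriers. For ski2-2 dcl4-2 the same table gave 5 of 6, 9 of 9, 5 of 5, 11 of 12, 5 of 5, 5 of 5 and 3 of 5. In it, LHCB1.3 had log2 folds of -1.58 in ein5-1 dcl4-2 (adjusted p = 1.80e-35) and -1.46 in ski2-2 dcl4-2 (adjusted p = 2.70e-55). The major antenna varied within itself, since the authors' deposited table gave LHCB1.5 -0.52 and LHCB1.4 -0.89 in ein5-1 dcl4-2, and LHCB2.3 -3.50. PETE2 had -2.62 and -2.19 in the authors' deposited table, LHCA4 had -1.85 and -1.79, and PSBO1 had -2.20 and -1.70. Genes not called in the authors' deposited table for ein5-1 dcl4-2 were LHCA5 (-1.27, adjusted p = 0.311), LHCA6 (-1.39, adjusted p = 0.145) and PSAE2 (-0.89, adjusted p = 0.189).

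Set against the single mutants, the authors' deposited table called 31 genes lower and 2 higher in ein5-1 dcl4-2 against ein5-1, where 4.69% of all genes were lower and 21.9% higher, and 39 lower and 0 higher in ski2-2 dcl4-2 against ski2-2, where 7.32% and 7.28% were. The medians there were -0.78 and -1.24, against 0.88 and 0 over all genes. Of the major antenna, 2 of 9 genes passed as lower in ein5-1 dcl4-2 against ein5-1. The LHCB1 genes, LHCB2.1 and LHCB2.2 did not, and levels of these single genes are uncertain because they share 22-base windows. For LHCB1.3 the authors' deposited table gave a log2 fold of 0.10 (adjusted p = 0.591), and for LHCB1.5 0.40 (adjusted p = 0.000417). LHCB1.3 averaged 273.1 units in ein5-1 dcl4-2 and 209.7 in ein5-1, against 680.2 in Col-0. LHCB1.5 is no longer higher once the median of all genes is subtracted from the folds. By limma, ein5-1 dcl4-2 was lower than ein5-1 for 20 of 37 genes and higher for 1, beside 4.24% and 30.1% of all genes, and 33 were lower on the microRNA scale. LHCB4.3 (-2.82), PSAK (-1.95), PSAH1 (-1.87) and LFNR1 (-1.74) fell most, with LHCB4.3 at 0 units in ein5-1 dcl4-2. Without ein5-1 library A or D, 13 were lower, and PSAH1 was not called without ein5-1 library A or ein5-1 dcl4-2 library B or C. By limma, ski2-2 dcl4-2 was lower than ski2-2 for 25 of 33 genes and higher for 0, beside 5.78% and 6.03%, with LHCB4.3 (-3.44) and LHCA6 (-2.89) lowest. These 2 genes averaged 0.365 and 0 units in ski2-2 dcl4-2, so the size of their falls depends on the 1 unit added before the logarithm.

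Against dcl4-2 the authors' deposited table gave 43 genes lower and 0 higher in ein5-1 dcl4-2, where 4.78% and 19.7% of all genes were, and 44 lower and 0 higher in ski2-2 dcl4-2, where 9.64% and 10.4% were. The medians were -2.31 and -1.92, against 0.91 and 0 over all genes.

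Between the 2 double mutants, 3 of 39 genes were lower in ein5-1 dcl4-2 than in ski2-2 dcl4-2 and 1 was higher by limma, beside 2% and 20.3% of all genes. The lower were LFNR1, the other leaf ferredoxin-NADP reductase (-1.92), PSBR (-0.92) and LHCA2 (-0.91), and the higher was PETE1 (1.85). Without ein5-1 dcl4-2 library D, 1 was lower and 2 higher, and on the microRNA scale 1 was lower and 1 higher. LFNR1 was also not called without ein5-1 dcl4-2 library B or ski2-2 dcl4-2 library A, PSBR without ski2-2 dcl4-2 library B, and LHCA2 without library C of ein5-1 dcl4-2 or library C or D of ski2-2 dcl4-2.

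In the triple mutants that also lacked DCL2, the set was near or above its Col-0 level as deposited. PSAK had 64.0, 83.4, 77.2 and 79.2 units in ein5-1 dcl4-2 dcl2-1, and 129, 81.5, 142 and 113 in ski2-2 dcl4-2 dcl2-1. Every one of these libraries lay above every library of its double mutant. The log2 folds over the double mutants were 3.46 (SE 0.33, adjusted p = 1.20e-09, limma) and 3.46 (SE 0.28, adjusted p = 1.49e-25, limma). In ein5-1 dcl4-2 dcl2-1 against ein5-1 dcl4-2, 20 of 24 genes were higher and 0 lower by limma, beside 2.91% and 21.2% of all genes, with a median of 2.00 against -0.68. In ski2-2 dcl4-2 dcl2-1 against ski2-2 dcl4-2, 22 of 25 were higher and 0 lower, beside 7.35% and 4.44%, with a median of 2.28 against 0.23. The authors' deposited table holds the same comparisons in the other direction, with the double mutant lower for 42 and higher for 0 of the 47 genes for ein5-1, where 4.02% and 16.7% of all genes were, and lower for 44 and higher for 0 for ski2-2, where 8.93% and 7.3% were. Plastid-encoded photosystem and cytochrome b6f genes also rose over the double mutants by limma. With ein5-1, 11 of 14 tested were higher (median 1.68), and with ski2-2, 11 of 13 (median 1.74), with 0 lower in each.

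Within the set, PSAH2 (3.11), LHCB2.3 (3.1) and PSAH1 (3.09) followed PSAK in the rise over the double mutant with ein5-1. With ski2-2, LHCB4.3 (4.16), LHCB2.3 (3.70) and LHCA6 (3.33) stood beside it. LHCB4.3 and LHCA6 averaged 0.365 and 0 units in ski2-2 dcl4-2, so the size of their rises depends on the 1 unit added before the logarithm. PETE1 went the other way with ein5-1, at a ratio of 0.517 between the means, which was not called (log2 fold -0.90, adjusted p = 0.0894, limma). LHCB1.3 had means of 1029 units in ein5-1 dcl4-2 dcl2-1 and 800.3 units in ski2-2 dcl4-2 dcl2-1, and the authors' deposited table gave its double mutants as -2.12 and -1.51 on the log2 scale below them.

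Against Col-0, ein5-1 dcl4-2 dcl2-1 had 1 of 25 genes higher and 0 lower by limma, beside 2.16% and 1.32% of all genes, and 11 lower and 0 higher on the microRNA scale. The gene was PSAD2, the ferredoxin-docking subunit of photosystem I (0.74, adjusted p = 0.0455, limma), which was -0.22 on the microRNA scale. The count ranged from 0, without Col-0 library A, C or D or ein5-1 dcl4-2 dcl2-1 library C or D, to 3 without ein5-1 dcl4-2 dcl2-1 library A or B, and it was 2 without Col-0 library B. In ski2-2 dcl4-2 dcl2-1, 16 of 25 genes were higher than in Col-0 and 0 lower, beside 6.03% and 2.58% of all genes, and on the microRNA scale 0 were higher and 7 lower. The median log2 fold was 0.63, against 0.31 over all genes. LHCB4.3 (1.61), LFNR1 (1.28), PSBS (1.02) and PSAE1 (0.94) rose most as deposited, and none of the 4 was called on the microRNA scale. Without Col-0 library A, 9 were higher. Genes outside the set rose in ski2-2 dcl4-2 dcl2-1 too. Of abundant nuclear genes outside photosynthesis, 10 of 12 tested were higher than in Col-0, with a median log2 fold of 1.02. Of plastid-encoded photosystem and cytochrome b6f genes, 9 of 13 were, with a median of 0.96. Of other nuclear thylakoid genes, 3 of 17 were, with a median of 0.66, and 0 were lower in each list.

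**Figure D5:**
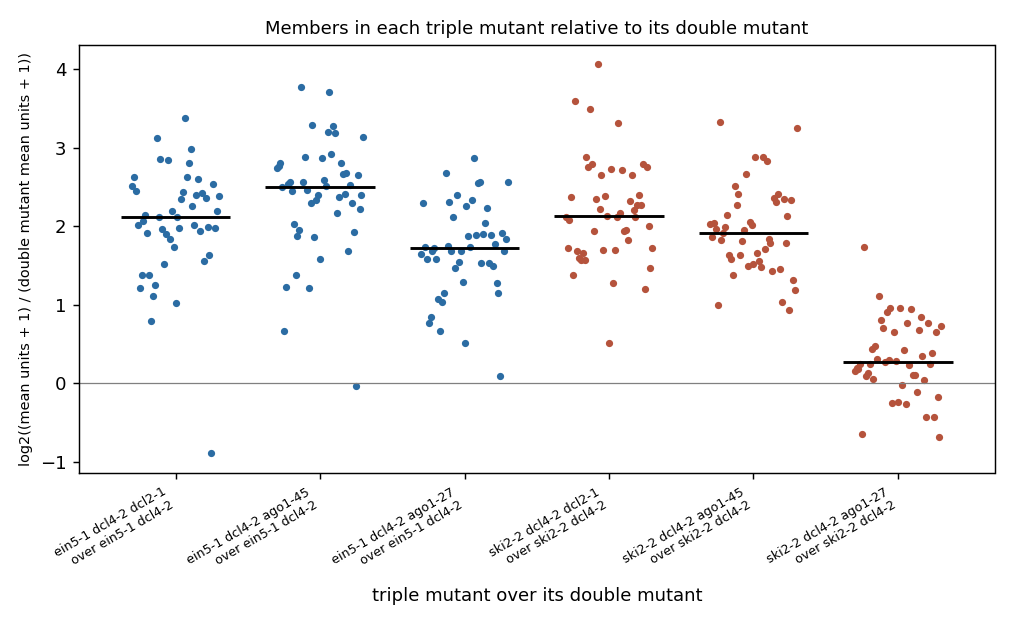
Log2((mean + 1)/(mean + 1)) of each triple mutant over its double mutant for the 47 genes (vertical axis), in 6 columns for the added dcl2-1, ago1-45 or ago1-27 with ein5-1 dcl4-2 and with ski2-2 dcl4-2. Points are genes and bars are medians. The ski2-2 dcl4-2 ago1-27 column lies nearest to 0, where 37 genes are above the double mutant and 10 below.

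The ago1 alleles differed in the size of the rise. In ein5-1 dcl4-2 ago1-45 against ein5-1 dcl4-2, 36 of 39 genes were higher and 0 lower by limma, beside 3.36% and 22.3% of all genes, with a median of 2.59 against -0.66. In ein5-1 dcl4-2 ago1-27, 36 of 40 were higher and 0 lower, beside 3.01% and 17.4%, with a median of 1.83 against -0.55. In ski2-2 dcl4-2 ago1-45 against ski2-2 dcl4-2, 41 of 43 were higher and 0 lower, beside 6.86% and 14.3%, with a median of 1.96 against -0.16. In ski2-2 dcl4-2 ago1-27, 6 of 42 were higher and 0 lower, beside 5% and 8.85%, with a median of 0.33 against -0.38, and on the microRNA scale 0 were higher and 2 lower. Plastid-encoded photosystem and cytochrome b6f genes also rose over the double mutants by limma. With ein5-1, 20 of 20 tested were higher with ago1-45 (median 2.48) and 19 of 20 with ago1-27 (median 1.78). With ski2-2 these counts were 17 of 20 (median 1.38) and 2 of 20 (median 0.36), and 0 were lower in each.

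Within the set of 47 genes, PSBO2 gives an example. It had 11.9, 6.38, 16.3 and 12.1 units in ein5-1 dcl4-2, 54.8, 68.9, 66.9 and 68.7 with ago1-45, and 45.2, 43.1, 43.1 and 53.9 with ago1-27. It had 24.4, 16.7, 26.3 and 9.48 units in ski2-2 dcl4-2, 60.3, 53.5, 47.4 and 51.9 with ago1-45, and 16.8, 15.5 and 21.1 in the 3 libraries with ago1-27. The ago1 libraries lay above all libraries of the double mutant in each case but the last, where the groups overlapped (log2 fold -0.02, adjusted p = 0.975, limma).

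PSAH2 (3.93), LHCB2.3 (3.81), PSAK (3.79) and LHCB6 (3.34), the CP24 antenna protein, rose most with ago1-45 in ein5-1 dcl4-2, and PSAH2 (3.04), PSAK (2.95), LHCB2.3 (2.70) and LFNR2 (2.65) with ago1-27. In ski2-2 dcl4-2, LFNR2 (3.28), LHCA6 (3.21), PSAF (3.13) and PSBW (3.12) rose most with ago1-45. LHCA6 was at 0 units in ski2-2 dcl4-2, so the size of its rise depends on the 1 unit added before the logarithm. With ago1-27 there, LHCB2.3 (1.33), PSAF (1.21), LHCB6 (1.07) and LHCB3 (0.82), an antenna protein of the inner trimers, rose, each with an adjusted p between 0.00675 and 0.0415 by limma. That count of 6 was 3 without ski2-2 dcl4-2 library A or without ski2-2 dcl4-2 ago1-27 library A, and 2 without ski2-2 dcl4-2 ago1-27 library C.

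The alleles were also compared with each other. With ski2-2 dcl4-2, 45 of 47 genes were higher in ago1-45 than in ago1-27 and 0 lower by limma, beside 21.1% and 24.1% of all genes. LFNR2 had 75.9, 52.5, 69.5 and 66.4 units with ago1-45 and 10.9, 8.64 and 12.3 with ago1-27, with no overlap (log2 fold 2.53, SE 0.22, adjusted p = 7.59e-11, limma). The 2 genes not called were LHCB4.3 (0.91, adjusted p = 0.131) and PETE1 (1.04, adjusted p = 0.0643) by limma. With ein5-1 dcl4-2, 36 of 47 were higher in ago1-45 and 0 lower, beside 6.53% and 13.6% of all genes. PSAE1 and LHCA1, an antenna protein of photosystem I, had log2 folds of 1.12 each there. All 6 photosystem I antenna genes and all 12 core genes were called with ski2-2 dcl4-2, and 4 of 6 and 11 of 12 with ein5-1 dcl4-2. Of 13 abundant nuclear genes outside photosynthesis, 12 were also higher in ago1-45 with ski2-2 dcl4-2, with a median log2 fold of 1.47 against 1.69 for the 47 genes and 0.32 over all genes. With ein5-1 dcl4-2, 9 of the 13 were, with medians of 0.63, 0.77 and 0.07.

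PETE1 stood apart from the rest, and from its partner PETE2. It had 2.44, 5.66, 11.3 and 5.20 units in Col-0, 6.91, 5.11, 5.92 and 12 in ein5-1, 14.2, 15.2, 20.4 and 19.0 in ein5-1 dcl2-1, and 16.4, 27.1, 14.5 and 21.2 in ein5-1 dcl4-2. The libraries of both double mutants lay above all of those of Col-0 and ein5-1. By limma the rise over Col-0 was 1.65 in ein5-1 dcl4-2 (SE 0.40, adjusted p = 0.00258), and in the authors' deposited table it was 1.44 (adjusted p = 0.00850). The median of all genes there was 0.87 by limma and 0.93 in the authors' deposited table, where PETE1 was at 0.50 once that median is subtracted. With ski2-2 dcl4-2 it had 2.22, 6.96, 5.84 and 4.74 units, within the Col-0 range (log2 fold -0.20, adjusted p = 0.871, limma). It stayed between 16.6 and 28.8 units in the 8 libraries of ein5-1 dcl4-2 with ago1-45 or ago1-27. PETE2 had a mean of 124 units in Col-0, 49.9, 40.9, 58.1 and 48.5 units in ein5-1, and 31.2, 25.5, 23.6 and 9.10 in ein5-1 dcl4-2, so the 2 plastocyanin genes lay on opposite sides of Col-0.

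LHCB4.3 was near the limit of these libraries and had a profile of its own. It had 0 units in all 4 libraries of ein5-1 dcl4-2 and 0, 0, 1.46 and 0 in ski2-2 dcl4-2. It had 7.41, 4.09, 5.92 and 7.42 units in ein5-1, which overlapped Col-0 (log2 fold -0.05, adjusted p = 0.949, limma), and 8.22, 15.3, 14.8 and 13.3 in ski2-2, all above Col-0 but not called (0.89, adjusted p = 0.308, limma). In ski2-2 dcl4-2 dcl2-1 it had 24.3, 16.0, 18.8 and 28.2 units, above every library of every other genotype. It was at 1.62 units on average in dcl2-1 and 1.88 in ein5-1 dcl4-2 dcl2-1.

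PSBS followed ein5-1 as the others did, with 28.1, 25.6, 16.1 and 28.5 units, all below Col-0 (-0.91, SE 0.18, adjusted p = 4.19e-05, limma). In ein5-1 dcl2-1 it had 32.2, 28.4, 20.4 and 26.8 units, which overlapped ein5-1 and was not called (0.14, adjusted p = 0.751, limma). In ski2-2 dcl4-2 dcl2-1 it had 100.1, 94.3, 75.3 and 110.8 units, all above Col-0.

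Other genes of photosynthesis give the setting. Among 26 plastid-encoded photosystem and cytochrome b6f genes, the median ratio to Col-0 was 0.553 in ein5-1, 1.06 in ski2-2, 0.298 in ein5-1 dcl4-2 and 0.581 in ski2-2 dcl4-2. By limma 11 of 17 were lower in ein5-1 and 0 of 16 in ski2-2, and the authors' deposited table called 21 of 26 lower in ein5-1 dcl4-2 and 19 of 26 in ski2-2 dcl4-2 against Col-0, with 0 higher in each. Among 18 other nuclear thylakoid genes, such as ATP synthase subunits, limma called 5 of 17 lower and 2 higher in ein5-1, and the authors' deposited table called 5 lower and 2 higher of 18 in ein5-1 dcl4-2 and 6 lower and 1 higher of 16 in ski2-2 dcl4-2. ELIP1, an early light-induced protein of that list, averaged 43.9 units in ski2-2 dcl4-2 and 25.4 in ein5-1 dcl4-2, against 2.78 in Col-0.

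The regulators GLK1, GLK2 and HY5 are transcription factors that act on nuclear photosynthesis genes. In the authors' deposited table all 3 were higher in ein5-1 dcl4-2 than in Col-0. There 21.1% of all genes were higher too, and the median log2 fold over all genes was 0.93. Their means in Col-0 and ein5-1 dcl4-2 were 7.44 and 43.5 units for GLK1, 4.71 and 32.7 for GLK2, and 0.236 and 6.58 for HY5. The Col-0 mean of HY5 is limited by depth. In ski2-2 dcl4-2, 0 of the 2 with an adjusted p were called in the authors' deposited table, where 8.13% of all genes were higher. Limma called 1 of 2 higher than Col-0, beside 6.83% of all genes, and GLK1 averaged 17.8 units. Of 13 abundant nuclear genes outside photosynthesis, 6 were lower and 1 higher in ein5-1 by limma, and the authors' deposited table called 0 lower and 7 higher in ein5-1 dcl4-2, or 4 higher after the median of all genes is subtracted, and 0 lower and 2 higher in ski2-2 dcl4-2. In ski2-2 dcl4-2 ago1-27 against ski2-2 dcl4-2, 12 of these 13 were lower by limma, beside 8.85% of all genes.

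Small RNA reads on genes used as root markers were higher in 2 of the groups. The summed mean of the root genes PYK10, BGLU21 and BGLU22 was 2.88 units in Col-0, 87.0 in ski2-2 dcl4-2 and 32.8 in ein5-1 dcl4-2, and it was at or below 7.87 units in the other genotypes. The authors' deposited table called 1 of 3 higher than Col-0 in ein5-1 dcl4-2, where 21.1% of all genes were higher. In ski2-2 dcl4-2 it called 1 of the 2 with an adjusted p, where 8.13% of all genes were higher. By limma 2 of 3 were higher than Col-0 in each double mutant, beside 30.1% of all genes in ein5-1 dcl4-2 and 6.83% in ski2-2 dcl4-2. The flower genes AG, AP3, PI, SEP1 and SEP3 summed to at most 1.4 units, and PI was at 0 throughout. The part of root tissue, or of the microRNA-locus levels, in the low values of the 2 double mutants was not tested.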

How the data were processed

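The submitters' processing notes name TAIR10, Bowtie 1.2.2, SAMtools 1.9 and DESeq2. RNA was prepared with a miRNeasy kit and libraries with a NEBNext small RNA kit, per the labels. The deposited table holds the mean signal of each of the 15 genotypes, called TPM per the file headers, and the authors' log2 fold, p-value and adjusted p-value for 8 comparisons. Treatment of multi-mapped reads and of strand is not given in the sources used here.

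Library values were recovered where 1 combination of whole reads matched a mean within 0.6 of its last digit, for 98.8 to 99.99% of genes per genotype. Libraries were compared with limma 3.58.1 (R 4.3.3, intensity trend) on log2(units + 1), for genes whose mean reached 1 unit, with Benjamini-Hochberg adjustment over all genes tested and a threshold of 0.05, in 18 planned and 8 added comparisons. No pair of libraries of a genotype was alike within sampling noise, with chi-square per gene from 1.2 to 2.5, and the p-values measure only the spread between libraries, which may be technical. Intervals from counting were not computed, and the depth per library limits precision for genes of few reads. The code was tested on simulated data. Up to 4 genes per comparison were named, the called ones with the largest absolute log2 fold, along with the gene of the highest Col-0 mean in each role, and the genes of the library plot, those shown library by library and ELIP1 were chosen after their values were seen. Members, gene lists and the added comparisons were chosen with earlier results of these data known. Alternatives were a pseudocount of 0.1, no filter, quantile normalization, the microRNA scale, leaving out each library and, for the authors' deposited comparisons, a threshold of 0.01 and centring on the median of all genes. For the 8 added comparisons these were chosen after seeing the data.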

Additional observations from a re-analysis of the deposited data

Results flagged for a closer look

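Of 154 groups of 4 libraries that could be examined, 9 held 1 library whose distance from the nearest other was larger, relative to the group's range, than Dixon's 95% critical value. Chance flags about 1 group in 20. LHCB4.3 had 4.23 units in ein5-1 dcl4-2 dcl2-1 library C against a group mean of 1.88, 0 units in ein5-1 dcl4-2 ago1-45 library D against 1.32, and 1.46 units in ski2-2 dcl4-2 library C against 0.365. PSAD2 reached 17.1 units in ein5-1 against a mean of 12.2, and PSAK reached 63.4 units in ein5-1 dcl4-2 ago1-27 against 52.9. PSBO2 was as low as 54.8 units in ein5-1 dcl4-2 ago1-45 against a mean of 64.8. PETE1 reached 15.9 units in ein5-1 dcl4-2 dcl2-1 against 10.3. LFNR1 reached 31.4 units in dcl2-1 against 23.8 and was as low as 16.1 units in ein5-1 dcl4-2 ago1-27 against 26.5.

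The effect of ein5-1 differed between plants with and without DCL2 for 19 of 26 genes by the interaction test of limma, where 3.46% of all genes were positive and 0.84% negative. The effect of ski2-2 differed for 3 of 26, where 0.487% and 0.214% were, and that count was as low as 1 with 1 library left out.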

How the results depend on the processing

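No paired analysis was possible because the deposited columns are genotype means and carry no replicate numbers. Over 34 counts of the genes called, 190 of 222 values with 1 library left out and 88 of 120 under other settings stayed within 1.5 times the count as reported in the same direction. In 2 of the 222 and 5 of the 120, more genes were called in the opposite direction. Of 96 named log2 folds, 743 of 816 values with 1 library left out and 341 of 384 under other settings kept direction and call, and 2 changed sign, both on the microRNA scale, PSAF in ein5-1 dcl2-1 against Col-0 (-0.12) and PSAD2 in ein5-1 dcl4-2 dcl2-1 against Col-0 (-0.22). On that scale the counts that moved were 22 lower in dcl2-1, 1 lower in dcl4-2 and 23 lower in ski2-2 dcl2-1 against Col-0, 33 lower in ein5-1 dcl4-2 against ein5-1, 14 higher in ein5-1 dcl2-1 against ein5-1, 1 higher in ski2-2 dcl2-1 against ski2-2 and 1 lower in ein5-1 dcl4-2 against ski2-2 dcl4-2. Counts of higher genes went to 0 against Col-0 in ein5-1 dcl4-2 dcl2-1, in ski2-2 dcl4-2 dcl2-1 and in ein5-1 dcl2-1, and in ski2-2 dcl4-2 ago1-27 against its double mutant. In each of these, and in ski2-2 dcl2-1 against ski2-2, more genes were lower than higher on that scale.

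With a pseudocount of 0.1 the counts were 3 in dcl2-1, 3 in ski2-2, 2 in ein5-1 dcl2-1, 1 in ski2-2 dcl2-1 and 0 in ein5-1 dcl4-2 dcl2-1 against Col-0, 2 in ski2-2 dcl4-2 ago1-27 against ski2-2 dcl4-2, 1 between the double mutants and 1 for the ski2-2 interaction. With no filter they were 3 in dcl2-1, 0 in ein5-1 dcl4-2 dcl2-1, 2 in ski2-2 dcl4-2 ago1-27, 5 between the double mutants and 1 for the ski2-2 interaction. With quantile normalization they were 7 in ein5-1 dcl2-1, 2 in ski2-2 dcl2-1, 0 in ein5-1 dcl4-2 dcl2-1 and 8 in ski2-2 dcl4-2 dcl2-1 against Col-0, 33 in ein5-1 dcl4-2 against ein5-1, 11 in ski2-2 dcl4-2 ago1-27 and 14 between the double mutants, where PETE1 (1.21) was not called. At 0.01 the authors' deposited table called 20 genes lower in ein5-1 dcl4-2 against ein5-1. The cause of these changes was not tested. Without the LHCB1 and LHCB2 genes the summed ratio to Col-0 was 0.923 in dcl2-1, 1.11 in ein5-1 dcl2-1, 0.256 in ein5-1 dcl4-2, 1.59 in ein5-1 dcl4-2 ago1-45, 0.736 in ski2-2, 0.999 in ski2-2 dcl2-1 and 1.53 in ski2-2 dcl4-2 dcl2-1.

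With 1 library left out, counts against Col-0 ranged from 3 to 5 in dcl2-1, 0 to 1 in dcl4-2, 21 to 22 in ein5-1, 3 to 6 in ski2-2, 2 to 4 in ein5-1 dcl2-1, 0 to 4 in ski2-2 dcl2-1, 22 to 23 in ein5-1 dcl4-2, 21 to 22 in ski2-2 dcl4-2, 0 to 3 in ein5-1 dcl4-2 dcl2-1 and 9 to 16 in ski2-2 dcl4-2 dcl2-1. Against the single mutants they ranged from 13 to 18 in ein5-1 dcl4-2, 21 to 24 in ski2-2 dcl4-2, 19 to 22 in ein5-1 dcl2-1 and 5 to 8 in ski2-2 dcl2-1. Against the double mutants the dcl2-1 triples had 20 in every case with ein5-1 and 21 to 22 with ski2-2, ago1-45 had 36 to 37 and 40 to 42, and ago1-27 had 34 to 36 and 2 to 8. The range was 16 to 21 for ein5-1 against ski2-2, 1 to 4 between the double mutants, 29 to 35 and 45 to 46 between the ago1 alleles with ein5-1 and ski2-2, 18 to 19 for the ein5-1 interaction and 1 to 4 for the ski2-2 interaction. Genes at 0 or 1 read in a library, such as LHCB4.3 and LHCA6, are limited by depth.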
